A study of Equus caballus with 4 samples.

Results

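The genes described here encode the SR proteins, the heterogeneous nuclear ribonucleoproteins (hnRNPs), the proteins of the small nuclear ribonucleoprotein particles (snRNPs) and the subunits of the SF3A and SF3B complexes. They were defined by name, as every gene on the array whose symbol began with SRSF, SFRS, HNRNP, HNRP, SNRP, SF3A or SF3B. This choice was made with earlier results of these data known. The definition gave 36 of the 24998 gene names on the array, read by 85 of its 43603 probes. Of these, 35 genes and 82 probes passed the filter on dim probes and were tested, namely 7 SR genes, 14 hnRNP genes, 8 snRNP genes and 6 of the 7 SF3 genes. SF3B4 was the exception, since neither channel was well above background on all 4 arrays.

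SR proteins carry a domain rich in arginine and serine and bind exonic sequences, where they help the splicing machinery to recognize an exon. The hnRNPs coat nascent transcripts and often act against SR proteins at the same exons, and many of them also carry mRNA out of the nucleus or alter its stability. The snRNPs are the particles that find the splice sites, and SF3A and SF3B are parts of the U2 particle that hold it on the branch point. In skeletal muscle, a change of isoforms in sarcomere and membrane genes accompanies the fusion of myoblasts into myotubes.

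Equine satellite cells (ESC) are the muscle stem cells of the horse, here from the semitendinosus muscle of stallions aged 6 months. Both groups were on day 3 of differentiation and both received 3 mM H2O2 for the last 1 h. The HMB-treated group had also been kept for 24 h with 50 µM HMB, a metabolite of leucine, and the control had not. The methods selected a single culture of the best viability and fusion index, so the 4 replicates need not be 4 horses, and p-values cover only the spread between these arrays. Each of 4 arrays carried RNA of the HMB-treated group in Cy5 and of the control in Cy3, with no dye swap. Treatment and dye therefore cannot be told apart. In the labels the control carries replicate number 1 on all arrays. If only 1 control RNA was used, the errors leave out its own spread.

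All values below are log2 ratios of the HMB-treated group over the control, after the normalization within each array by the authors, so a positive value means higher expression with HMB. A gene was called when limma's adjusted p was 0.05 or less and the fold change (FC) was 1.3 or more in either direction, which is 0.38 on the log2 scale. The myogenic character of the cells was visible in 10 tested markers of 14 listed. PAX7, CDH15, ITGA7 and TNNT1 were not found by name on the array. The number of endothelial or adipocyte markers well above background was 0, whereas 8 of 10 fibroblast markers and 2 of 10 leukocyte markers were. Of these lists, EMCN, CLDN5, PLIN1, PTPRC, CD163 and COL1A1 were not found by name on the array.

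The ratios of the splicing factor genes were mostly small. Of the 35 tested, 2 were called (5.71%), SNRPB as higher and SRSF5 as lower, against 28.9% of the 13979 genes tested on the array. Scaled to spike-in RNA instead, 30 of the 35 were called, all lower, against 73.9% of all genes. Over all genes under the authors' scaling 12.5% were called higher and 16.4% lower. The mean log2 ratios of the members lay between -0.39 and 0.45, with a median of -0.10 against -0.06 over all genes. Their median size, regardless of sign, was 0.16 against 0.23 over all genes. The 95% interval of 21 members lay wholly within an FC of 1.3 in both directions, so a larger change of these was not seen at this precision, while the same held for 39.2% of all genes. By single probes, 4 of the 82 were called, 3 higher (SNRPB and 2 of HNRNPUL1) and 1 lower (SRSF5), where 28.6% of the 24673 tested probes on the array were called, 12.1% higher and 16.4% lower. The adjusted p alone was passed by 6 members and by 46.2% of all genes. These RNAs came from whole cultures, in which fewer cells of a type and less RNA per cell cannot be told apart.

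**Figure D1:**
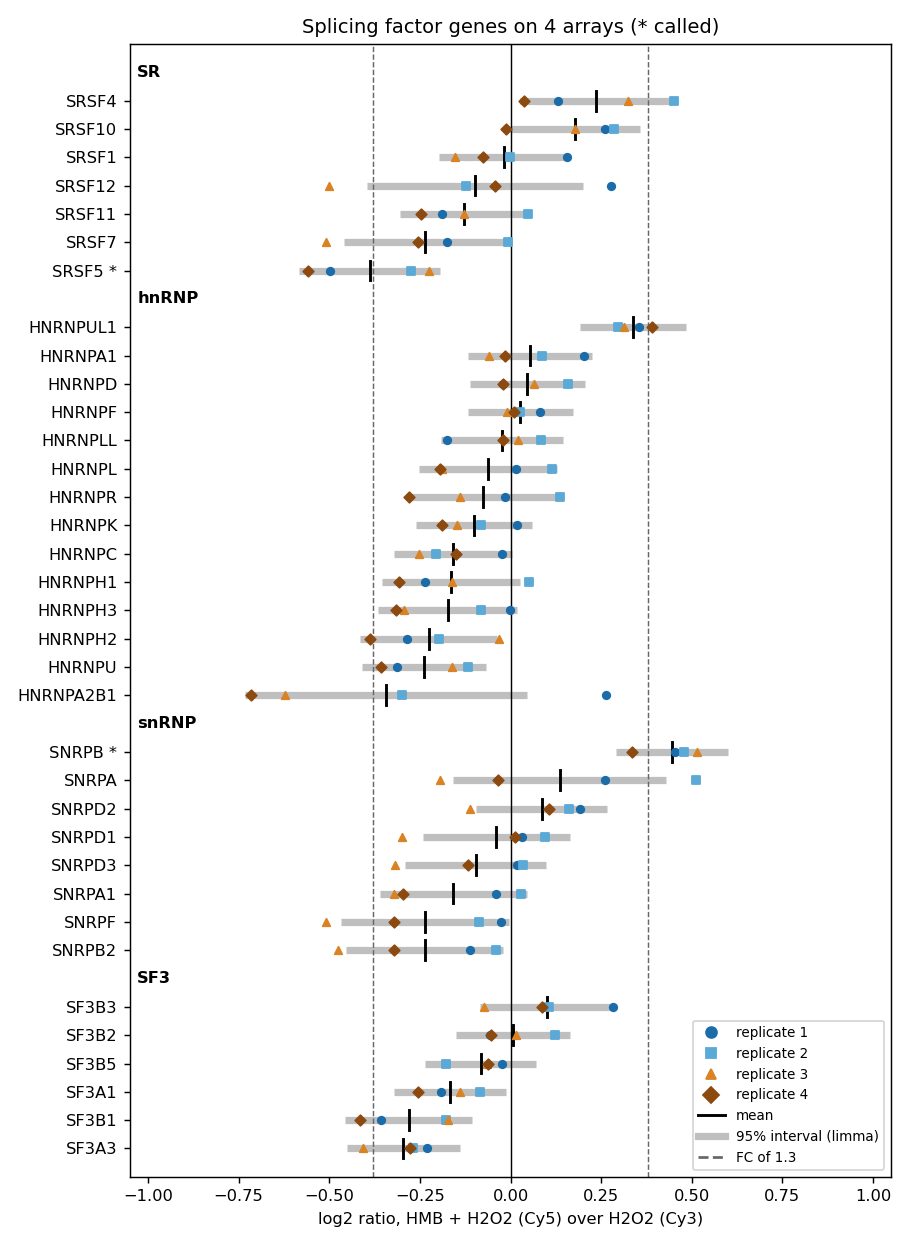
Log2 ratio of the HMB-treated group over the control (horizontal axis) for the 35 tested genes, ordered within each family by their mean. Coloured points are the 4 arrays, black ticks the means, grey bars the 95% interval of limma and dashed lines an FC of 1.3. SNRPB (mean 0.45) and SRSF5 (mean -0.39) are marked with an asterisk as called, and HNRNPA2B1 and SRSF12 spread widest over the arrays.

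The snRNP proteins comprise the Sm ring, which every spliceosomal snRNP shares, and proteins specific to the U1 and U2 particles. SNRPB encodes SmB, a subunit of that ring. Its single probe lies at chr22:20140091-20140150 of EquCab1, the build of the file headers, on the forward strand, at positions 267 to 326 of the transcript. It is shown because SNRPB was the only member called as higher:
SNRPB: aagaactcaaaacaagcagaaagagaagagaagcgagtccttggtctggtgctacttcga

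In the control channel, the normalized signal of SNRPB was 561, 483, 571 and 474 on the arrays of replicates 1 to 4. In the HMB-treated channel it was 769, 674, 815 and 598. The log2 ratio was thus 0.46, 0.48, 0.51 and 0.33, and every array was higher with HMB by a similar margin. The mean was 0.45 ± 0.08 (SD, n = 4), an FC of 1.36 with an adjusted p of 0.00237, under the authors' scaling. Scaled to the spike-in RNA, the mean was -0.04 with limma's adjusted p at 0.659, and SNRPB was not called.

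The other 7 snRNP genes were not called. SNRPA, which encodes a protein of the U1 particle, had values of 0.26, 0.51, -0.19 and -0.03. For SNRPD2, SNRPD1 and SNRPD3, further subunits of the Sm ring, the means were 0.09, -0.04 and -0.10. SNRPA1, of the U2 particle, and SNRPF, of the Sm ring, were at -0.16 and -0.24. SNRPB2, the U2 particle protein with the lowest mean of the family, gave -0.11, -0.04, -0.48 and -0.32. Its mean of -0.24 ± 0.20 (SD, n = 4) had an adjusted p of 0.0714 and its 95% interval reached from -0.45 to -0.02. Replicates 3 and 4 were the low ones for SNRPB2, as for most genes of this family.

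SRSF5 encodes an SR protein with RNA-recognition motifs and was read by 2 probes, at positions 1371 to 1430 and 1434 to 1493 of its transcript. The normalized control signal was 2309, 2304, 2886 and 2523, and the signal with HMB was 1635, 1906, 2468 and 1714. The log2 ratio was -0.50, -0.27, -0.23 and -0.56, lower with HMB on every array but by less on replicates 2 and 3. The mean of -0.39 ± 0.16 (SD, n = 4), a fall by an FC of 1.31, had an adjusted p of 0.00969 and lay just past the FC threshold. The means of its probes were -0.45 and -0.33, and that of the first alone was called. The call was lost without replicate 1 (-0.35) and without replicate 4 (-0.33), in both cases because the FC fell below the threshold. It was also lost with normexp background correction (-0.32), without background correction (-0.29) and with median centering (-0.27). The same held with the correction for probe GC content (-0.378) and by the methods' t-test.

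The SR gene with the highest mean was SRSF4, another regulator of exon choice, at 0.13, 0.45, 0.32 and 0.04 on the 4 arrays. The mean was 0.24 ± 0.19 (SD, n = 4) with an adjusted p of 0.0646, and it was -0.25 with spike-in scaling. SRSF10, SRSF1, SRSF12, SRSF11 and SRSF7 had means of 0.18, -0.02, -0.10, -0.13 and -0.24. None of these passed the adjusted p. SRSF1, the SR protein known for deciding between competing splice sites, had an interval from -0.20 to 0.16, wholly within an FC of 1.3. A second probe of SRSF1 and a second one of SRSF10 were too dim to be tested.

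Of the hnRNP genes, 0 of 14 were called by limma and 0 by the methods' t-test, while 3 had an unadjusted p below 0.05. Over all 13979 genes tested, 28.9% were called by limma, 2754 by the methods' t-test, and 7654 had an unadjusted p below 0.05. HNRNPUL1, an hnRNP U-like protein, had the highest mean. Its log2 ratio was 0.36, 0.30, 0.31 and 0.39, with little spread over the arrays. The mean of 0.34 ± 0.04 (SD, n = 4) had an adjusted p of 0.00540, and its FC of 1.26 stayed under the threshold. The gene was called with median centering (0.39) and by its brightest probe (0.46), and its mean was -0.15 with spike-in scaling. The 5 probes behind it all start within positions 2878 to 2885 of the transcript and so read nearly the same bases. A further probe, which the array describes as a transcript variant of the same gene but lists under an accession, had a mean of 0.06 and an adjusted p of 0.479.

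HNRNPA2B1, which binds and sorts mRNAs and miRNAs, had the lowest mean of the family and the widest spread. Its single probe gave 0.26, -0.30, -0.62 and -0.71. Replicate 1 was above 0 and the other arrays were below it, so the mean of -0.34 ± 0.44 (SD, n = 4) had an adjusted p of 0.126. Without replicate 1 the mean was -0.55 and the gene was called. The control signal of this gene also varied between the arrays, from 3099 on replicate 1 to 5770 on replicate 3.

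HNRNPU, a scaffold protein of the nuclear matrix, passed the adjusted p at 0.0339 with a mean of -0.24. Its 3 probes had means of -0.36, -0.28 and -0.07, and they did not pass the test of a difference between probes (adjusted p = 0.430). The means of the remaining hnRNP genes apart from HNRNPA1 lay between -0.23 (HNRNPH2) and 0.05 (HNRNPD). HNRNPF and HNRNPLL were the closest to 0, at 0.03 and -0.02, and HNRNPK, HNRNPL, HNRNPR, HNRNPC, HNRNPH1 and HNRNPH3 were all at negative means. For HNRNPL the interval was -0.25 to 0.13 over 5 probes.

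HNRNPA1 represses exons and shuttles between nucleus and cytoplasm. Averaged over its 10 probes, the ratios were 0.20, 0.09, -0.06 and -0.02 and the mean was 0.05 ± 0.12 (SD, n = 4), with an interval from -0.12 to 0.23. Its probes fall into 4 places along the transcript and were unequal among themselves. The sequences of both sets of overlapping probes are shown, since the ratio differed between them. In each run, overlapping probes are joined and capitals mark the probe whose mean was farthest from 0. The first run covers 3 probes and lies at chr6:71180852-71180918 of EquCab1, in the part that encodes the first RNA-recognition motif. The second covers 5 probes at chr6:71181566-71181803, in the second motif and across an intron of the genome. Both are on the forward strand.
HNRNPA1 run 1: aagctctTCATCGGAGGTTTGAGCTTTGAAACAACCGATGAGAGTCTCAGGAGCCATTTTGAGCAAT
HNRNPA1 run 2: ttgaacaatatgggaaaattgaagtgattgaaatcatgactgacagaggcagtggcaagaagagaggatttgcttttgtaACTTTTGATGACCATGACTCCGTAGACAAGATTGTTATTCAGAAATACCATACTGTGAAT

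The first run (transcript positions 144 to 210) had mean ratios of -0.41, 0.03, -0.13 and -0.42 on the 4 arrays. The second run (positions 475 to 614) had 0.57, 0.11, -0.01 and 0.25. The second was above the first on each array, by 0.97 and 0.67 on replicates 1 and 4 but only by 0.09 and 0.12 on replicates 2 and 3. A probe near the end of the transcript (positions 1775 to 1834) had a mean of -0.11.

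HNRNPA1 was 1 of 15 members with several probes (6.67%) to pass the F test of a difference between probes, at an adjusted p of 0.0481, against 2.29% of 4544 genes. Of 62 member probes, 0 passed limma's test on their own against the other probes of their gene, with 10 at an unadjusted p below 0.05, and 1.06% of all such probes on the array passed it. The test was not passed when any 1 replicate was left out, with adjusted p-values from 0.0976 to 1, nor when the differences were taken within each array (0.272), a setting chosen after seeing the data. The overlapping probes of a run share their bases, and binding of transcripts from close copies of this gene was not tested.

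**Figure D2:**
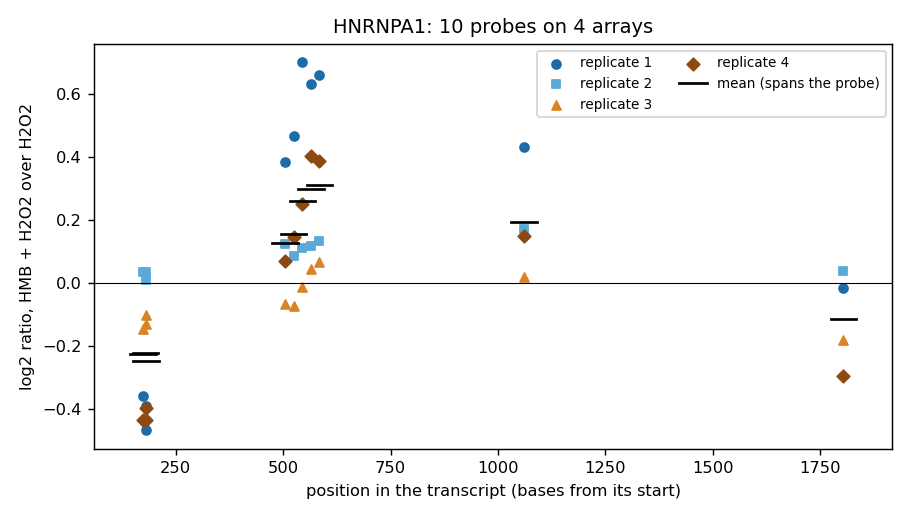
Log2 ratio of the HMB-treated group over the control for the 10 probes of HNRNPA1, against their position in the transcript in bases. Points are the 4 arrays and black bars the means over the length of each probe. The 3 probes of the first run have means near -0.23 and the 5 of the second run means from 0.13 to 0.31, with the gap mainly on replicates 1 and 4.

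Among the SF3 genes, 0 of 6 were called by limma and 0 by the methods' t-test, and 3 had an unadjusted p below 0.05. Of all 13979 genes, 28.9% were called by limma, 2754 by the methods' t-test, and 7654 had an unadjusted p below 0.05. SF3A3, a subunit of SF3A, had the lowest mean. It gave -0.23, -0.27, -0.41 and -0.28, below 0 on every array. The mean was -0.30 ± 0.08 (SD, n = 4) with an adjusted p of 0.0113, and the fall by an FC of 1.23 was too small to be called. SF3B1, the large subunit that contacts the branch point, was at -0.28 with an adjusted p of 0.0208. SF3B3, the gene with the highest mean, gave 0.28, 0.11, -0.07 and 0.09, a mean of 0.10 ± 0.15 (SD, n = 4) with an adjusted p of 0.319. SF3A1, SF3B5 and SF3B2 were at -0.17, -0.08 and 0.01, with intervals wholly within an FC of 1.3.

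The family medians were -0.10 for SR, -0.09 for hnRNP, -0.07 for snRNP and -0.12 for SF3 genes. The first 3 change sign with the scaling or with 1 array. With normexp background correction the SR median was 0.0017 and without replicate 3 it was 0.03. With median centering the hnRNP median was 0.02 and the snRNP median 0.08. Without replicate 3 the snRNP median was 0.01.

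The arrays were less alike than these medians show. On the arrays of replicates 1 to 4, the median of the 35 genes was -0.02, 0.03, -0.15 and -0.15, while that of all genes stayed between -0.07 and -0.05. For 19 of the 35 genes, both replicates 3 and 4 were below both replicates 1 and 2, and 0 genes had the opposite order. Over all genes 20.3% had this order and 20% the opposite one. Among the snRNP genes it was 7 of 8, among the hnRNP genes 7 of 14, among the SR genes 3 of 7 and among the SF3 genes 2 of 6. This split of the arrays was made from the data and the labels give no reason for it.

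Genes of cell division divided the arrays in the same way. Of 20 listed, 18 were tested, and all 18 had both replicates 3 and 4 below both replicates 1 and 2. Their median was 0.62, 0.50, -0.37 and -0.14. By limma or the methods' t-test 0 were called, with 1 at an unadjusted p below 0.05. Over all 13979 genes, 28.9% were called by limma, 2754 by the methods' t-test, and 7654 had an unadjusted p below 0.05. The summed normalized signal of these 18 genes was 23475, 21259, 33526 and 26909 in the control and 36172, 29534, 26991 and 24736 in the HMB-treated group. The control channel thus also differed between the arrays, with its highest level on replicate 3. Their part in the pattern of the splicing factors was not tested.

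**Figure D3:**
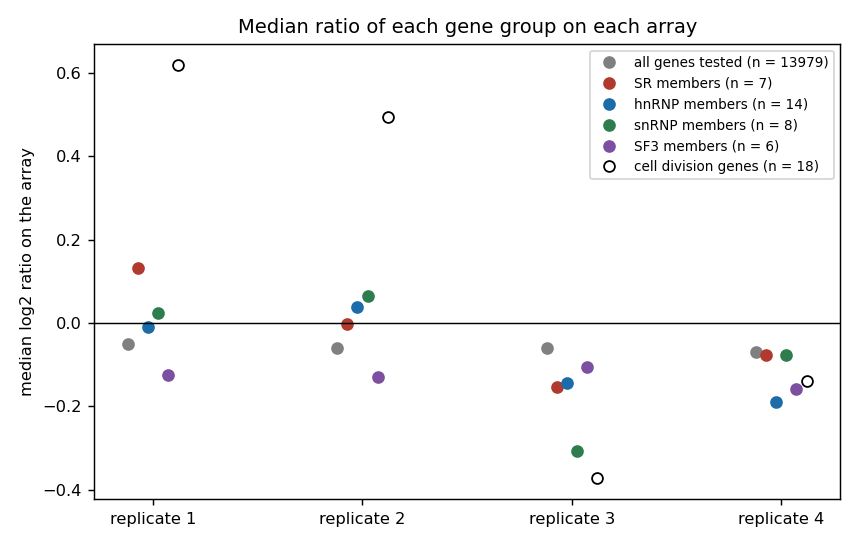
Median log2 ratio of each gene group on each of the 4 arrays, with the number of genes tested in the legend. The snRNP median moves from 0.07 on replicate 2 to -0.31 on replicate 3, the cell division genes from 0.50 to -0.37, and all genes stay near -0.06.

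Other genes of the splicing machinery were taken from 8 lists with 199 genes, none of them a member, of which 143 were tested. Of these, 18 were called (12.6%, against 28.9% of all genes), 4 higher and 14 lower, and their median was -0.07. Their means reached from -1.20 to 0.84. Of the core spliceosome, 6 of 51 were called (11.8%), 1 higher and 5 lower. The lowest were SUGP2 (-0.66), PRPF38B (-0.50) and CWC27 (-0.50), of which PRPF38B (-0.29) and CWC27 (-0.27) were not called with normexp background correction. DHX38, a helicase of the second catalytic step, was called higher at 0.84, but its values of 0.64, 0.87, 0.28 and 1.56 were uneven. With normexp background correction its mean was -0.51 with limma's adjusted p at 0.516.

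The LSM proteins form rings like that of the Sm proteins, with one ring in the nucleus on the U6 snRNA and one in the cytoplasm that starts mRNA decay. Of 10 tested, 4 were called (40%, against 28.9% of all genes). LSM6 and LSM4, which both rings share, rose by a mean of 0.55 and 0.38. Under spike-in scaling LSM6 was at 0.06 and LSM4 at -0.11, and neither was called. LSM1, found in the cytoplasmic ring alone, gave -0.43, -0.50, -0.52 and -0.43 and fell by 0.47 (adjusted p = 0.00149). Its call was lost without background correction (-0.36) and with median centering (-0.36). LSM14B, a protein of RNA granules outside both rings, fell by 0.39, but was at -0.11 with normexp and -0.14 without background correction and then not called. The call of LSM4 was lost without replicate 1 (0.28), 2 (0.40) or 4 (0.38). It was also lost with normexp (0.29) and without background correction (0.36). The same held with a correction for probe GC content (0.35) and with no filter on dim probes (0.38). LSM14B lies at the FC threshold, and its call was lost without replicate 1 (-0.38), 2 (-0.34) or 3 (-0.38).

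Of the exon junction complex and the factors linked with it, 3 of 10 were called (30%), close to the 28.9% of all genes. DDX39B, a helicase that joins splicing to mRNA export, gave 0.75, 0.76, 0.68 and 0.64, a mean of 0.71 with an adjusted p of 0.000323. The mean was 0.18 with no filter on dim probes and 0.22 with spike-in scaling, and the call was lost in both. UPF3A and UPF3B, which link this complex to nonsense-mediated decay, fell by 0.76 and 0.44, with values below 0 on every array. With normexp background correction these were -0.30 and -0.21 and neither was called. Of 15 speckle and SR-related proteins, 1 was called (6.67%), LUC7L3 at -0.61.

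The list of tissue and muscle splicing regulators held the lowest means of the 8 lists. Of 31 tested, 4 were called (12.9%, against 28.9% of all genes), all lower. RBFOX1, which directs exon choice in muscle and brain, gave -1.61, -1.11, -0.88 and -1.21 and fell by 1.20 (adjusted p = 0.000540). It was still called at -0.63 with normexp background correction and at -0.60 with no filter on dim probes. RBM24, a regulator of sarcomere isoforms, gave -0.69, -0.56, -0.67 and -1.09 and fell by 0.75 (adjusted p = 0.00157). KHDRBS3, known for regulating exons together with its relative Sam68, gave 0.19, -1.54, -0.84 and -1.82, a mean of -1.0 with an adjusted p of 0.0377. Replicate 1 of KHDRBS3 was above 0, unlike the other arrays, and its call was lost without replicate 2 (-0.83), 3 (-1.06) or 4 (-0.73). It was also lost with normexp (-0.11), without background correction (-0.23) and with no filter on dim probes (-0.99), and the gene was not tested when both channels had to be well above background.

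RBFOX1 and RBM24 were lower with HMB, but the tissue and muscle regulators went both ways. Of the 31 tested, 11 means were above 0 and 20 below, against 5971 and 8008 over all 13979 genes. Most myogenic markers were lower with HMB. Of the 10 tested, 8 were called lower, against 16.4% of all genes, with a median of -1.02 over the list. MYF5 was at -1.63 and MYH8 at -1.67, whereas MYOD1 and MYOG were at 0.10 and 0.03. Their summed normalized signal lay between 194616 and 217094 in the control and between 81449 and 124378 in the HMB-treated group. For the fibroblast markers, 5 of 8 tested were called higher, against 12.5% of all genes, led by PDGFRA at 1.82. Their summed signal was 66933 to 85283 in the control and 66877 to 110170 with HMB. COL1A1 was not found by name and TCF21 was too dim to be tested. Of the tested leukocyte markers, CD68 was called higher at 0.88 and CD14, at 0.20, was not called. The part of these cell type markers in the changes of the splicing regulators was not tested.

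Over all 13979 genes, 28.9% were called by limma, 2754 by the methods' t-test, and 7654 had an unadjusted p below 0.05. In 3 lists, 0 genes were called by limma. These were 5 genes of 3′ splice site recognition, 7 SR protein kinases and import factors, and 15 genes of snRNP assembly, with 1, 3 and 5 at an unadjusted p below 0.05, and the methods' t-test called 0 in each. Of the kinases that phosphorylate SR proteins, CLK2 (0.35) and CLK3 (0.30) passed limma's adjusted p at 0.00687 and 0.00865, with an FC below 1.3. Both were named after their values were seen. The other tested kinases of the list did not pass it, with CLK4 at 0.10, PRPF4B at 0.09 and CLK1 at -0.19.

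**Figure D4:**
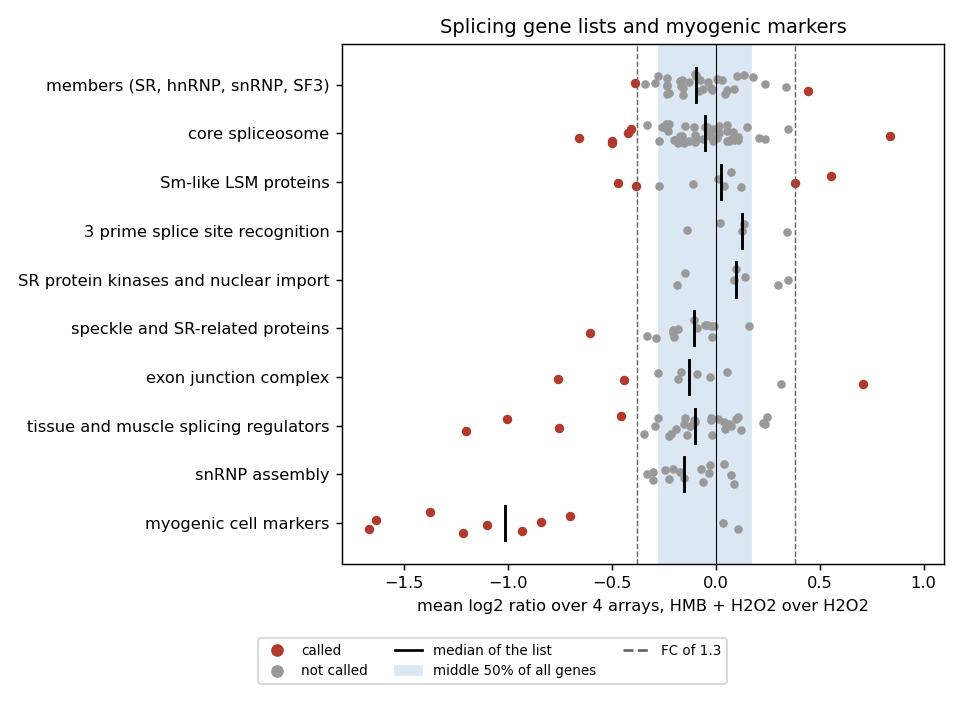
Mean log2 ratio over 4 arrays for each tested gene (points) of the members, the 8 other splicing lists and the myogenic markers, with called genes in red, list medians as black ticks, the middle 50% of all genes shaded and dashed lines at an FC of 1.3. The members reach from -0.39 to 0.45, whereas the tissue and muscle regulators extend down to -1.20 and the myogenic markers to -1.67.

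Probes that the array describes as SR, hnRNP or snRNP genes but lists under an accession or a provisional symbol were outside the rule for members. There were 22, all tested, with means from -0.40 to 0.24. Of these, 1 probe was called, against 28.6% of the 24673 tested probes on the array. The called probe is described as SNRPN, a close relative of SNRPB, at -0.40 (limma's adjusted p = 0.00532). It and the SNRPB probe share no run longer than 6 bases.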

How the data were processed

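Gene expression was measured on 4 two-color Agilent horse arrays with probes of 60 bases, all on 1 slide. The authors deposited scanner files and a table of normalized values. The intensity values of both channels were background-subtracted by the authors, who then applied linear and lowess normalization to each array on its own. The deposited log10 ratios are Cy5 over Cy3, written by Feature Extraction, version 10.10.1.1 per the file headers. Here they were turned to log2 ratios by a change of base, whereas the deposited log10 ratios were not otherwise altered. The authors' table holds the same log10 ratios.

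Each array gave 45220 spots, of which 43803 were not controls. Spots marked as outliers were left out, at most 35 per array. A probe was tested when the same channel was well above background on all 4 arrays (24673 probes). Tested probes of one gene name were averaged, and an intercept was fitted with limma 3.58.1 in R 4.3.3, with the Benjamini-Hochberg correction over all 13979 genes. The number of arrays limits the precision. Probes of a gene were compared with diffSplice of limma. Lowess removes any shift that most transcripts share. The fits were tested on simulated data.

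The members, the other lists and the rule for named genes were chosen with earlier results of these data known. The rule was to name every called member, the highest and the lowest mean of each family, members whose probes differ, and up to 3 called genes per direction of each other list. HNRNPU, SF3B1, the remaining members given by their means only and the kinases were added for completeness. Probe sequences and their EquCab1 positions are those of the scanner files, and 1 probe of HNRNPA1 is not reported here on its own. Alternatives covered background correction, normalization, filters, the summary per gene, the test, the authors' table and each replicate left out.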

Additional observations from a re-analysis of the deposited data

How the results depend on the processing

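The count of 2 called members became 0 with normexp background correction, 1 without background correction, 1 with the correction for probe GC content, 0 with limma's treat, 1 with the methods' t-test and 30, all lower, with spike-in scaling. Without 1 replicate it was 1 to 2. SRSF5 was lost without replicate 1, where HNRNPA2B1 was called instead, and without replicate 4. SNRPB was called under 15 of 19 alternatives and SRSF5 under 10. These counts include the authors' table, which holds the same ratios, and the filters on dim probes, which left the ratios of both genes unchanged. For SRSF5 they also include spike-in scaling, where 73.9% of all genes were called. The spike-in RNA gave intercepts of 0.57, 0.46, 0.37 and 0.55 (log2) on the 4 arrays. This scaling thus moved the median of all genes to -0.55. It moved SNRPB to -0.042, SF3B3 to -0.39, HNRNPA1 to -0.43, HNRNPUL1 to -0.15, SRSF4 to -0.25 and LSM4 to -0.11. At these values SF3B3 and HNRNPA1 passed limma's adjusted p and the others did not. DHX38 moved to -0.51 with normexp and did not pass limma's adjusted p there. The cause was not tested.

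The count of 4 called member probes (3 higher, 1 lower) became 1 with normexp, 2 without background correction, 67 with spike-in scaling and 0 with treat. That of 18 in the other splicing lists became 7, 9, 122 and 4 in the same order. Family medians under spike-in scaling were -0.59 (SR), -0.58 (hnRNP), -0.56 (snRNP) and -0.61 (SF3). The SF3 median was -0.078 with normexp, -0.039 without background correction, -0.0084 with median centering and -0.082 with no filter on dim probes. Without 1 replicate the SR median was -0.11 to 0.026. Over all genes, 28.9% were called, 43.2% of these higher. This became 12.9% called and 57.1% higher with normexp, 17.1% and 62.1% without background correction, 73.9% and 6.30% with spike-in scaling, and 11.0% called with treat.

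The arrays pair the groups. In separate channels with no replicate block for the array, 0 members and 0 member probes were called, SNRPB at an adjusted p of 0.0603 and SRSF5 at 0.120. The same fit called 12 genes of the other splicing lists. The share of all genes called by this fit is not given here, so these counts cannot be set against it.

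The unequal probes of HNRNPA1 left 1 gene called. It became 0 with normexp, with median centering, with both channels above background, within arrays and without any 1 replicate (0 to 0). Of 171 comparisons of named members with an alternative, 150 kept their side of the thresholds, and of 284 for the other lists 231 did. Among the named members only SNRPB and SRSF5 were called, so most of the 150 are genes that stayed uncalled, whatever their sign. A filter with either channel above background on each array, added after seeing the data, left the count of members at 2. With 4 arrays and no dye swap, small ratios cannot be separated from dye effects.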
